A study of Mus musculus with 12 samples.

Results

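The subject here is 10 genes of the NF-kappa-B pathway in mouse adipocyte progenitors: the subunit genes Nfkb1, Nfkb2, Rel, Rela and Relb, the inhibitor and feedback genes Nfkbia, Nfkbie, Bcl3 and Tnfaip3, and the adhesion target Icam1. They were selected by name out of 21631 protein-coding genes after earlier results of the same libraries were known, so their differences between genotypes are described and not tested. The readout was H3K27ac, an acetyl mark on lysine 27 of histone H3 that is found at active promoters and enhancers. It was measured by ChIP-seq in 3 Azin2-/- libraries (replicates 1, 2 and 8) and 3 wild-type libraries (replicates 1, 2 and 2b). The labels give neither the age or sex of the mice nor how the Azin2 allele was made, and they do not state that the replicates are from different mice. All 6 libraries came from subcutaneous fat cells kept 1 week in high-glucose medium (4.5 g/l) with 10% serum. For the next 2 days they received dexamethasone and rosiglitazone (1 µM each), IBMX at 0.5 mM and insulin at 5 µg/ml, and for 5 more days insulin without the other agents. Dexamethasone activates the glucocorticoid receptor, which is known to restrain inflammatory NF-kappa-B targets, and both genotypes received it.

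NF-kappa-B is a family of dimeric transcription factors that inhibitor proteins hold in the cytoplasm. Inflammatory signals activate a kinase complex that marks the inhibitors for degradation, and the freed dimers enter the nucleus and bind kappa-B motifs in DNA. Among the first genes they switch on are their own inhibitors, which gives a negative feedback loop, and in fat this pathway is known for its part in inflammation and insulin resistance.

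The kappa-B motif, searched as GGGNNTTTCC on both strands (N stands for any base), was found in the RefSeq promoters of 4 of the 8 genes that have an entry: Nfkb2, Rel, Nfkbia and Tnfaip3. Nfkb1 and Relb have no entry. Each entry covers 250 bases before to 50 after an annotated start on GRCm38, and 1.89% of the 27025 genes in that table hold the motif. A looser form, GGGNNNNNCC, was present in all 8 and in 53.5% of all genes, so it does not separate these genes from others. The 5 sites of the 10-base form are shown because they lie where the acetylated regions described next were found. Each is written on the strand of its gene with the match in capitals, at chr19:46304716-46304745 and chr19:46305695-46305724 (plus strand) for Nfkb2, and on the minus strand at chr12:55492657-55492686 for Nfkbia, chr11:23771041-23771070 for Rel and chr10:19015403-19015432 for Tnfaip3.
Nfkb2 first start: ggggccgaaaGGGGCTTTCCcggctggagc
Nfkb2 second start: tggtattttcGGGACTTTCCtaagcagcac
Nfkbia: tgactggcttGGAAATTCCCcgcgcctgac
Rel: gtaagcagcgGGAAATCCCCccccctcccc
Tnfaip3: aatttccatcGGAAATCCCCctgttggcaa

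The match began 11 bases before the first listed Nfkb2 start, 12 before the Tnfaip3 start, 29 before the Nfkbia start and 91 before the Rel start. The other Nfkb2 site began at base 11 counted from the second start as base 1, which is 225 bases before the third start. Rel and Tnfaip3 carried the same 10 letters, and the Nfkbia, Rel and Tnfaip3 matches were on the strand opposite to the gene. The 250 bases upstream of these 3 starts are given for context, at chr12:55492648-55492897, chr11:23770970-23771219 and chr10:19015411-19015660 of GRCm38, on the minus strand, with the match again in capitals.
Nfkbia upstream: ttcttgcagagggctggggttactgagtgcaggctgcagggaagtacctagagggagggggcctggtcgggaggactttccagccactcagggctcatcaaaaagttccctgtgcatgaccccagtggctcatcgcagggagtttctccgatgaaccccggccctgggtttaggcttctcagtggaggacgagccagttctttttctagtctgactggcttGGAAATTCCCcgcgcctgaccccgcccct
Rel upstream: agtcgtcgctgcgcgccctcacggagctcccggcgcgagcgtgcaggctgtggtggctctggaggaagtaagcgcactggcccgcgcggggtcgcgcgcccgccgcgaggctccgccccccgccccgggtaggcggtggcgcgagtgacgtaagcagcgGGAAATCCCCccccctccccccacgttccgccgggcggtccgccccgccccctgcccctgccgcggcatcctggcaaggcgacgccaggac
Tnfaip3 upstream: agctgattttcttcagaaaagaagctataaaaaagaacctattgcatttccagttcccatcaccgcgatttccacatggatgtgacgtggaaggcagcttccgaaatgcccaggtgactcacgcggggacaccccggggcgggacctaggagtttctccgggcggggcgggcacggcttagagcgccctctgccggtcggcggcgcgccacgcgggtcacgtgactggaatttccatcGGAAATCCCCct

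These are GC-rich promoters. Over the 300 bases of the entry the GC content was 75.0% at Rel, 61.0% at Nfkbia and 56.7% at the upstream Tnfaip3 start, against a median of 52.7% over the 32851 promoter entries. The number of CG dinucleotides was 42, 15 and 22 in the same order, against a median of 7.

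The deposited data are 1 peak list per library, and the 30000 peaks of smallest deposited p-value in each were used. Read totals are not given, so depth is unknown, but the lists differ in strength: 13843 to 54847 peaks per library reached a deposited q of 0.05. In every library except Azin2-/- replicate 1 the 30000 therefore include peaks that did not. All 30000 peaks together covered 16.9 Mb in wild-type replicate 1, the least, and 28.9 Mb in Azin2-/- replicate 1, the most. The measure per gene is cover, the base pairs under these peaks in the gene span and 5 kb on each side, scaled to equal total cover per library. At Azin2 itself scaled cover was 893 to 1642 bp in the Azin2-/- libraries and 1219 to 2015 bp in the wild-type ones, and these overlapping values do not check the labels, since acetylation over a gene does not show whether it is intact. Of 10 markers of adipocyte progenitors, the labelled cell type, only Pdgfra had cover in all 6 libraries, while Ly6a, Col3a1 and Lum had it in 1 each. Of 10 adipocyte markers, Cebpa and Plin1 had cover in all 6, and Adipoq and Retn in none. No macrophage, endothelial or lymphocyte marker had cover in all 6, but Ptprc, Spi1, Tyrobp, Pecam1, Tek, Erg and Cd79a had it in 5, so the marker cover does not single out progenitors. Neighbouring genes in the marker windows were not examined, so part of this cover may be theirs.

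Acetylation stood at the starts of most of these genes in both genotypes. Of the 8 genes with a promoter entry, Rel, Rela, Nfkbia and Bcl3 had a peak within 1 kb of a listed start in all 6 libraries. Among 17274 protein-coding genes with an entry, 19.0% had one. Tnfaip3 had one in 5 libraries and Nfkb2 in 4, whereas Icam1 had one in 2 and Nfkbie in 1. At Nfkb1 and Relb, for which no start is listed, the region held by all 6 libraries lay over the end of the gene span with the higher coordinate.

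**Figure D1:**
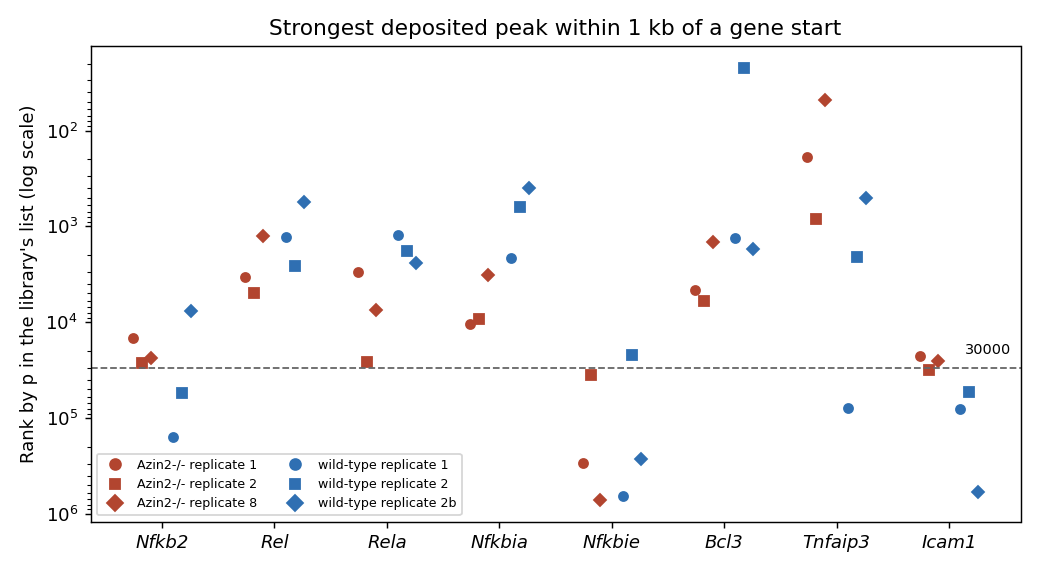
Rank of the strongest deposited peak within 1 kb of a listed start (vertical axis, log scale, strong peaks at the top) for the 8 genes with a promoter entry, 1 point per library, red for Azin2-/- and blue for wild-type. The dashed line is the 30000th peak: Rel, Rela, Nfkbia and Bcl3 lie above it in all 6 libraries, while Nfkbie is above it in 1 and Icam1 in 2. At Rela and Nfkbia every blue point lies above the red ones, and at Icam1 every red point lies above the blue ones. The lists differ in length and strength and depth is unknown, so ranks are not a measure of change between genotypes.

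Tnfaip3 encodes A20, a ubiquitin-editing enzyme that shuts off NF-kappa-B signalling. Its start carried peaks near the top of 5 of the 6 lists, ranked 189 in Azin2-/- replicate 1, 828 in replicate 2 and 48 in replicate 8, and 2092 in wild-type replicate 2 and 507 in replicate 2b. The exception was wild-type replicate 1, whose best peak there ranked 78377 with a deposited fold of 2.63 and stayed outside the list. Where present, the summit lay 186 to 212 bases past the start in every library. The peaks merged into chr10:19014109-19015848, and those of 4 libraries reached the kappa-B site, the peak of wild-type replicate 2 ending short of it. Scaled cover over the Tnfaip3 window (chr10:19000910-19015410 with flanks) was 1147, 821 and 1118 bp in Azin2-/- replicates 1, 2 and 8, and 403, 709 and 1803 bp in wild-type replicates 1, 2 and 2b. The Azin2-/- values thus fell inside the wild-type range (log2 difference 0.16, SE 0.48).

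Nfkbia encodes I-kappa-B-alpha, the inhibitor that NF-kappa-B itself induces. All of its cover sat in a single region over the start, chr12:55491598-55493619, held by all 6 libraries with ranks from 399 to 10481. The kappa-B site lay under the peak in 5 of them, and the peak of Azin2-/- replicate 2 ended beside the start, short of the site. Scaled cover was 1262, 805 and 1344 bp in Azin2-/- replicates 1, 2 and 8, and 1105, 2085 and 679 bp in wild-type replicates 1, 2 and 2b. The highest and the lowest value were both wild-type (log2 difference -0.07, SE 0.43).

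Bcl3, an atypical I-kappa-B protein that works in the nucleus with p50 and p52, also had its start acetylated throughout, at chr7:19821989-19824051. The peak there ranked 22 in wild-type replicate 2, the best rank at any of these genes in any list, and between 1309 and 5959 in the other 5. Scaled cover of the whole window ranged widely, with 3542, 1361 and 1767 bp in Azin2-/- replicates 1, 2 and 8 and 7740, 979 and 1945 bp in wild-type replicates 1, 2 and 2b. Wild-type replicate 1 was far above the other wild-type libraries, with 1884 bp of unscaled cover in the start region and 3729 bp elsewhere in the window. The log2 difference was -0.27 (SE 0.58) with it and 0.44 without it.

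Nfkbie, which encodes I-kappa-B-epsilon, showed a different picture. The region held by all 6 libraries in its window, chr17:45563519-45565410, lay beyond the gene, over the start of the neighbouring Slc35b2 at chr17:45563936, a solute carrier gene. Its summits were 8308 to 8414 bases past the Nfkbie start. That region made up 89.4% of the cover counted for Nfkbie. At the Nfkbie start only wild-type replicate 2 had a peak, ranked 21823 with a deposited fold of 3.55 and a summit 255 bases before it, while the best peaks of the other 5 libraries ranked between 35578 and 718307. The scaled cover of 901, 1630 and 997 bp in Azin2-/- replicates 1, 2 and 8 and 781, 1608 and 1524 bp in wild-type replicates 1, 2 and 2b (log2 difference -0.10, SE 0.41) is therefore mainly a reading of Slc35b2.

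Rela encodes p65, the main transactivating subunit of the canonical pathway. Its start region, chr19:5636776-5638492, was held by all 6 libraries, with summits 142 to 374 bases past the start. Scaled cover was 1900, 1060 and 842 bp in Azin2-/- replicates 1, 2 and 8, and 845, 1426 and 1135 bp in wild-type replicates 1, 2 and 2b. The genotypes overlapped (log2 difference 0.08, SE 0.41). The start peak ranked 2979, 26218 and 7474 in Azin2-/- replicates 1, 2 and 8. In wild-type replicates 1, 2 and 2b it ranked 1239, 1816 and 2426, but ranks do not measure change between genotypes. The log2 difference changed sign in 6 of 23 other settings. It was -0.75 without overlap at a deposited q of 0.01 or less, and -1.05 with overlap in the lists of 5000 peaks. The highest value was 0.35, with all deposited peaks.

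Rel encodes c-Rel, a subunit best known in lymphocytes. The region over its start, chr11:23770183-23771864, was held by all 6 libraries, and the kappa-B site lay under the peak in each, the only one of the 5 sites for which this was so. All summits were upstream, 133 to 299 bases before the start. Scaled cover was 1214, 1138 and 1295 bp in Azin2-/- replicates 1, 2 and 8, and 2433, 777 and 1999 bp in wild-type replicates 1, 2 and 2b. The Azin2-/- libraries were close together within a broad wild-type range (log2 difference -0.30, SE 0.41), and 88.3% of the cover lay in the start region.

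Relb encodes the partner of p52 in the non-canonical pathway. Its strongest shared region, chr7:19628141-19629926, was at the gene end of higher coordinate and was held by all 6 libraries. A further region inside the gene, chr7:19618843-19620591, was held by 5 libraries and ranked 390 in Azin2-/- replicate 2. Another 34.5% of the counted cover lay in the neighbours Clasrp and Clptm1, most of it at the Clasrp start. Wild-type replicate 1 had neither the inner region nor the one at Clasrp. Scaled cover was 3162, 2732 and 3856 bp in Azin2-/- replicates 1, 2 and 8, and 1638, 3489 and 2924 bp in wild-type replicates 1, 2 and 2b (log2 difference 0.27, SE 0.35), with overlap. In the gene span alone the log2 difference was 0.84 without overlap, where 11.8% of all loci did not overlap. With the neighbours and 1 kb around them removed it was 0.50 with overlap.

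In 3 windows the genotypes did not overlap: Nfkb2 and Icam1 were higher in the Azin2-/- libraries and Nfkb1 was lower. Over the 11670 loci with a mean cover of at least 500 bp, which include all 10 genes, 6.72% were higher without overlap and 4.93% lower without overlap. By limma, with Benjamini-Hochberg adjustment over all these loci at 0.05, 0 loci were called, which is 0.0% of them, while 506 higher and 249 lower loci had an unadjusted p under 0.05. The genes were selected with this contrast in view, so their share is not read against these figures. The median log2 difference was 0.01 over the 10 genes and 0.07 over all loci, and 5 of the 10 were above 0.

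**Figure D2:**
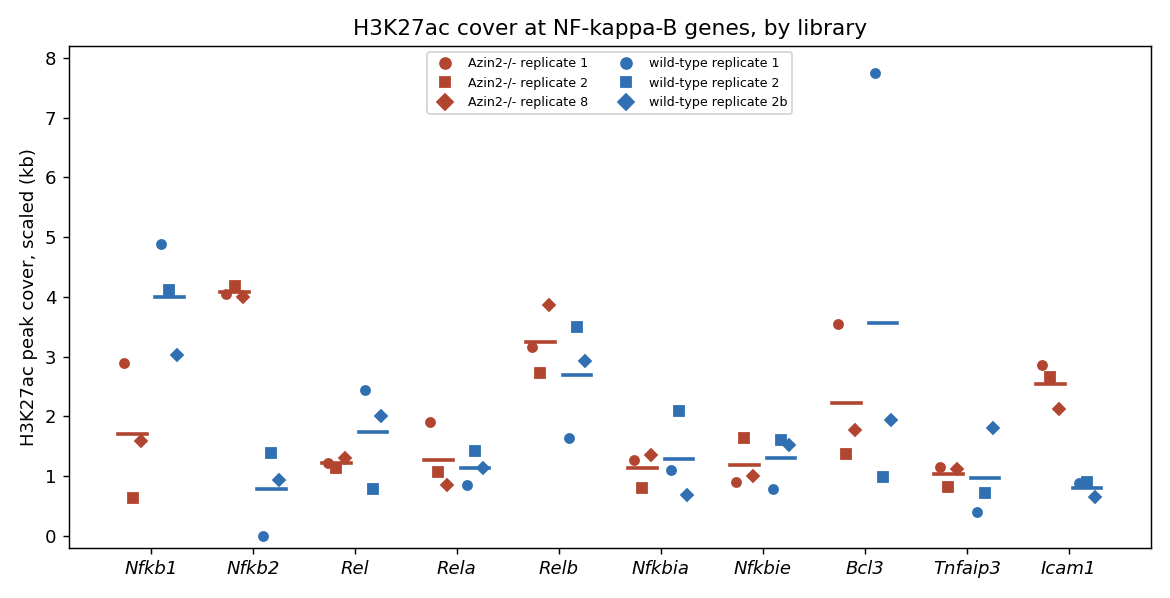
Scaled H3K27ac cover (kb, vertical axis) of each gene span with 5 kb on each side, 1 point per library and a bar at the mean of the 3 libraries, red for Azin2-/- and blue for wild-type. The red points stand above all blue ones at Nfkb2 and Icam1 and below them at Nfkb1, and the colours mix at the other 7 genes.

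Nfkb2 encodes p100, the precursor that is processed to p52 in the non-canonical pathway. Scaled cover of its window (chr19:46300994-46312400 with flanks) was 4042 bp in Azin2-/- replicate 1, 4179 bp in replicate 2 and 4004 bp in replicate 8, against 0 bp in wild-type replicate 1, 1386 bp in replicate 2 and 938 bp in replicate 2b. The Azin2-/- libraries were nearly equal, 4075 ± 92.0 bp (SD, n = 3), and the wild-type ones lower and scattered, 775 ± 707 bp (SD, n = 3). On the log2 scale with 500 bp added the difference was 2.05 (SE 0.48).

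The start region of Nfkb2, chr19:46304139-46306494, spans all 3 listed starts. Every Azin2-/- library and wild-type replicate 2b held it. Within that region the peaks sat at different places: the kappa-B site next to the first start was covered in Azin2-/- replicates 1 and 2, and the one near the second start in Azin2-/- replicates 1 and 8 and in wild-type replicate 2b. These peaks ranked 7660 in wild-type replicate 2b and 14588, 26406 and 23490 in Azin2-/- replicates 1, 2 and 8. The best rank among them was thus in a wild-type list. The peaks of Azin2-/- replicates 2 and 8 stood low among the 30000 and did not reach a deposited q of 0.05. Those of Azin2-/- replicate 1 and wild-type replicate 2b reached it. In the other wild-type libraries the best deposited peak near the first start ranked 54640 (replicate 2) and 156649 (replicate 1), with folds of 3.06 and 2.40. The counted peaks had folds of 7.19, 3.46 and 2.78 in Azin2-/- replicates 1, 2 and 8, and 4.52 in wild-type replicate 2b. The fold in Azin2-/- replicate 8 was thus below that of the uncounted peak in wild-type replicate 2.

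More of the Nfkb2 difference lay downstream. A region inside the gene, chr19:46308535-46309419, was held by Azin2-/- replicates 1 and 8 only. Another, chr19:46311086-46313204, crossed the boundary into the overlapping neighbour Psd and was held by all 3 Azin2-/- libraries and wild-type replicate 2. Psd, which encodes an exchange factor for the GTPase ARF6, accounted for 42.8% of the cover counted for Nfkb2. With the Psd span and 1 kb on each side removed, Nfkb2 cover was 2352 ± 616 bp against 313 ± 541 bp (SD, n = 3 each), and the genotypes still did not overlap (log2 difference 1.98). In Azin2-/- replicate 2 the unscaled remainder was 1774 bp. Of this, 521 bp was the start peak and 1253 bp a region that no other library held, chr19:46301730-46302982. Wild-type replicate 2b kept 1129 bp, so this separation rests on that solitary region.

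**Figure D3:**
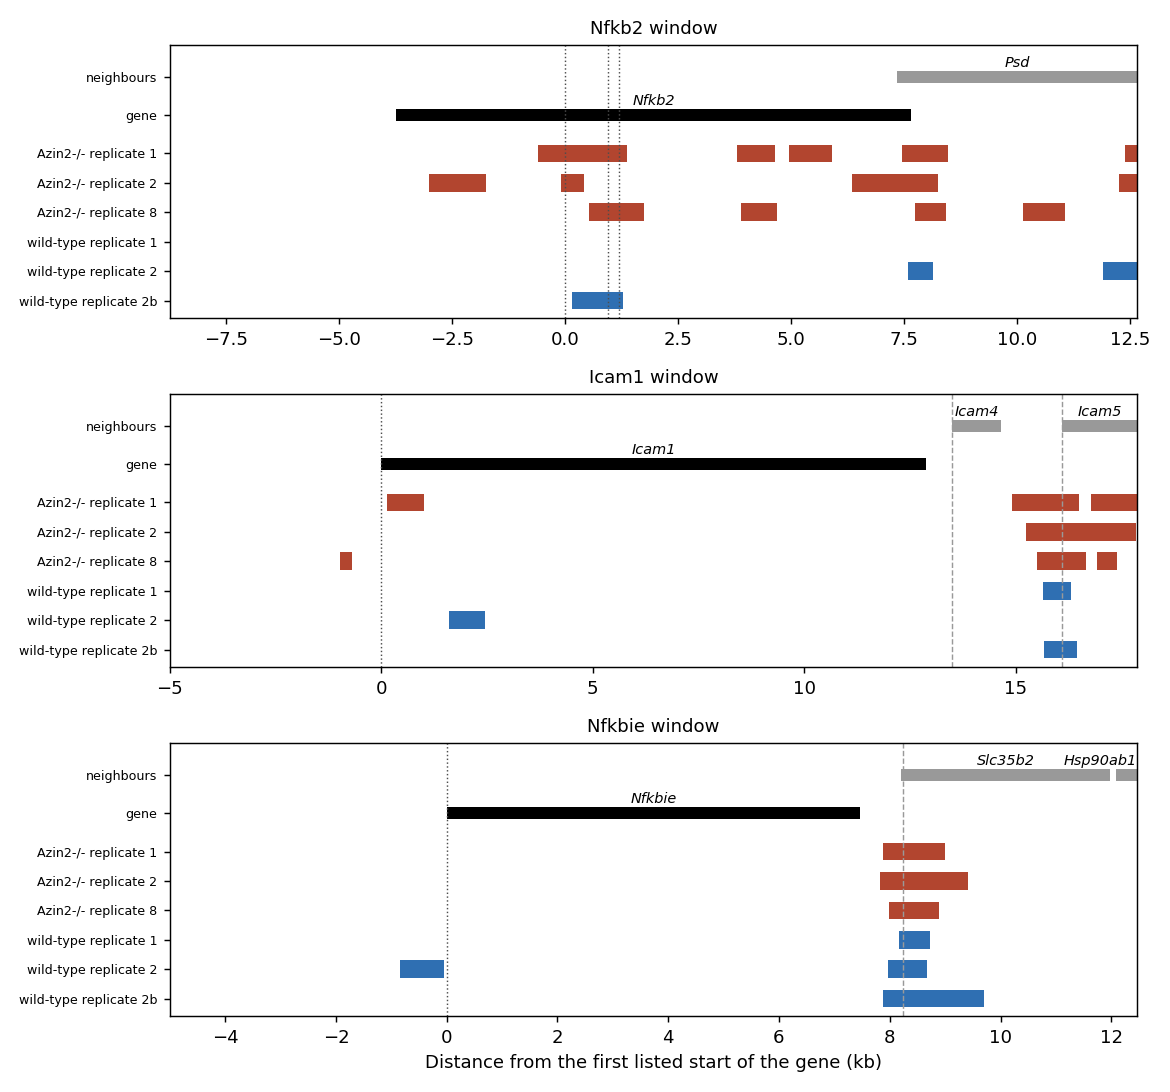
Peaks of each library among its 30000 strongest (coloured bars, red for Azin2-/- and blue for wild-type) in the windows of Nfkb2, Icam1 and Nfkbie, with distance from the first listed start in kb on the horizontal axis. Black bars are the gene spans, grey bars neighbouring protein-coding genes, dotted lines starts of the gene and dashed lines starts of neighbours. Peaks lie along Nfkb2 itself, whereas at Icam1 and Nfkbie most stand beyond the gene, over the starts of Icam5 and Slc35b2.

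Icam1, the adhesion molecule to which leukocytes bind and a classical NF-kappa-B target, had scaled cover of 2854, 2663 and 2120 bp in Azin2-/- replicates 1, 2 and 8, and 884, 896 and 641 bp in wild-type replicates 1, 2 and 2b. The means were 2546 ± 381 bp and 807 ± 144 bp (SD, n = 3 each), and the log2 difference was 1.22 (SE 0.35). Little of this was at Icam1. The region chr9:21030852-21034255, which reaches over the Icam5 start at chr9:21032038, held 80.6% of the counted cover. There the Azin2-/- libraries had 2305 ± 588 bp and the wild-type ones 471 ± 413 bp of unscaled cover within the window (SD, n = 3 each).

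Icam5 encodes telencephalin, a relative of Icam1 best known in neurons. Both Azin2-/- replicates 1 and 8 had a second peak inside the Icam5 span, and replicate 2 had a single peak of 2596 bp, against single peaks of 641 and 772 bp in wild-type replicates 1 and 2b and none in replicate 2. With Icam4, Icam5 and 1 kb around them removed, Icam1 cover was 340 ± 346 bp against 299 ± 517 bp (SD, n = 3 each), the genotypes overlapped and the log2 difference was 0.17. At the Icam1 start itself, chr9:21015940, only Azin2-/- replicates 1 and 8 had a peak. Azin2-/- replicate 2 came next at rank 31917, and the best wild-type peaks ranked 53369, 80597 and 588247. The Azin2-/- replicate 2 peak equalled in deposited p and fold that library's counted peaks at the Nfkb2 and Rela starts, ranked 26406 and 26218. Only the ordering of ties by position left it outside the list.

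**Figure D4:**
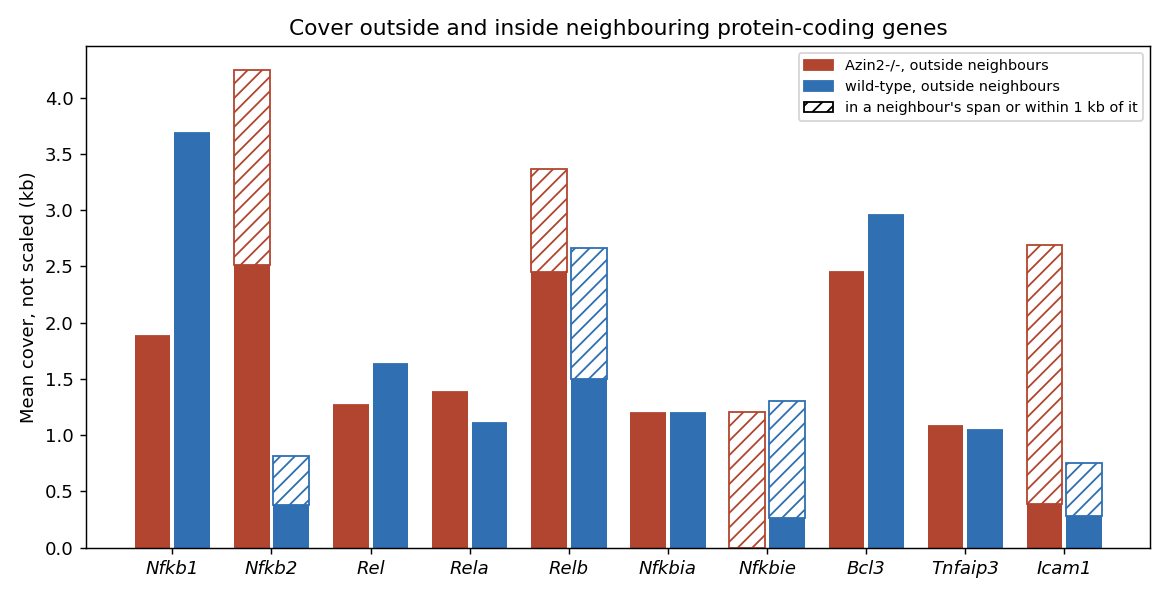
Mean unscaled cover per genotype (kb) at each gene, split into cover outside neighbouring protein-coding genes (filled) and cover in a neighbour's span or within 1 kb of it (hatched), red for Azin2-/- and blue for wild-type. The hatched part is 80.6% of all cover at Icam1, 89.4% at Nfkbie, 42.8% at Nfkb2 and 34.5% at Relb, and is absent at the other 6 genes.

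Nfkb1 encodes p105, the precursor of the p50 subunit, and was the one gene of the 10 with lower cover in the Azin2-/- libraries throughout. Scaled cover over chr3:135584655-135691969 with its flanks was 2884, 636 and 1592 bp in Azin2-/- replicates 1, 2 and 8, and 4883, 4109 and 3018 bp in wild-type replicates 1, 2 and 2b. The log2 difference was -1.15 (SE 0.42), and the lowest wild-type value was close to the highest Azin2-/- value. Without the scaling to equal totals the log2 difference was -1.01 and the genotypes overlapped. The region shared by all libraries, chr3:135690254-135692153, measured 942 ± 444 bp in the Azin2-/- libraries and 1606 ± 146 bp in the wild-type ones (unscaled, SD, n = 3 each). It held 45.7% of the cover. The rest was in 13 regions that each occurred in a single library, 5 of them in Azin2-/- and 8 in wild-type libraries, and no position other than the shared region recurred.

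Such solitary regions were common across the 10 windows. Of 52 merged regions, 36 were held by 1 library and 7 by all 6. The 7 were 1 each at Nfkb1, Rel, Rela, Relb, Nfkbia, Nfkbie and Bcl3. No region was held by all 3 libraries of one genotype and by none of the other. The same shares over all regions of the lists were not computed, so these counts are not read as particular to the 10 genes. Over the whole lists, the Jaccard index (shared part over union) was 0.13 to 0.16 between wild-type libraries. It was 0.16 to 0.24 between Azin2-/- libraries and 0.12 to 0.22 across genotypes.

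Per length, as the unscaled percent of the window under peaks, the order of the genes differed between the genotypes. In the wild-type libraries Bcl3 was first with 12.1 ± 9.87%, then Nfkbia with 9.03 ± 5.05% and Relb with 8.03 ± 3.87% (SD, n = 3 each). In the Azin2-/- libraries Nfkb2 was first with 19.8 ± 3.32%, against 3.79 ± 3.31% in wild-type, and Relb and Bcl3 had 10.1 ± 1.95% and 10.0 ± 6.99%. Icam1 had 11.8 ± 3.57% in Azin2-/- and 3.29 ± 0.45% in wild-type, and Nfkbie 6.90 ± 2.00% and 7.48 ± 3.78%, both mostly cover of their neighbours. Rela had 6.70 ± 4.14% and 5.35 ± 2.07%, Tnfaip3 4.41 ± 1.30% and 4.26 ± 4.06%, Rel 2.87 ± 0.49% and 3.70 ± 1.91%, and Nfkb1, the longest gene, 1.61 ± 1.31% and 3.14 ± 0.15%, in the order Azin2-/- and wild-type. Nfkbia was level between the genotypes, with 9.01 ± 2.97% in Azin2-/-. In wild-type, genes next to each other in the order differed by less than the larger of their SDs, and so they did in Azin2-/- except Nfkb2 above Icam1 and Tnfaip3 above Rel.

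The values above depend on which peaks are counted. The log2 difference kept its sign in all 22 other settings with a value for Nfkb2, all 23 for Nfkb1 and all 21 for Icam1. Among them were the lists of 15000 and 60000 peaks, q thresholds, other windows and leaving out each library. Keeping the sign was not keeping the separation. At a deposited q of 0.01 or less Nfkb2 fell to 0.94 with the genotypes overlapping. Icam1 overlapped with 60000 peaks (0.86), at a q of 0.05 or less (1.14) and with summit windows (0.67). For Nfkb1 the genotypes overlapped with 60000 peaks (-1.30), at a q of 0.05 or less (-0.82), in the gene span alone (-0.95) and with summit windows (-0.58). For the other 7 genes it changed sign in 1 to 9 settings, which for Tnfaip3 included leaving out wild-type replicate 1 (-0.13) and for Nfkbia leaving out wild-type replicate 2 (0.24). When all deposited peaks were counted, Nfkb2 and Icam1 fell to 0.07 and 0.03 and Nfkb1 moved to -0.39.

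**Figure D5:**
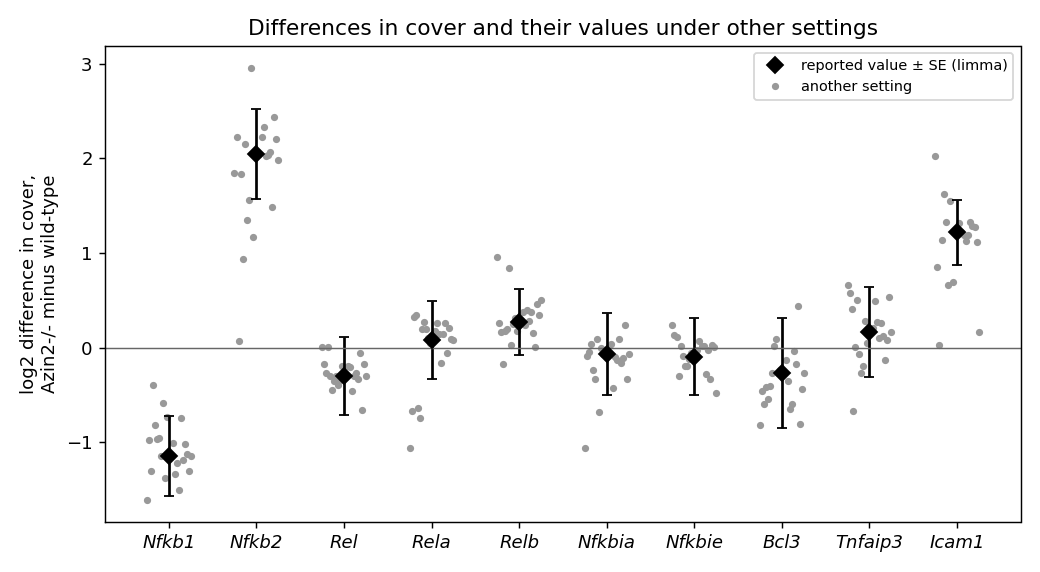
Log2 difference in cover, Azin2-/- minus wild-type, for each gene: the black diamond with its bar is the reported value ± SE from limma, and each grey point is the value under another setting. Nfkb2 and Icam1 stay above 0 and Nfkb1 below 0 under every setting shown, while the other 7 genes have points on both sides.

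Summed cover at endothelial markers separated the genotypes, although no single endothelial marker of the 4 tested did and limma called 0 of them, with 0 at an unadjusted p under 0.05. Below the 500 bp minimum for testing, Cldn5 did separate them, with 795 ± 291 bp in the Azin2-/- libraries and 0 bp in the wild-type ones (scaled, SD, n = 3 each). Emcn, also below it, went the other way, with 0 bp against 137 ± 237 bp. The summed scaled cover of the 10 endothelial markers was 7582 to 8114 bp in the Azin2-/- libraries and 1402 to 4992 bp in the wild-type ones, with Esam at 0 in all libraries. For the 10 macrophage markers the ranges were 6008 to 6530 bp and 1105 to 6888 bp, and for the 10 lymphocyte markers 2682 to 4188 bp and 477 to 6349 bp, with Cd3e and Cd8a at 0 in all libraries. The macrophage marker Lyz2, below the minimum, had 503 ± 164 bp against 0 bp, while Ptprc and Csf1r had lower means in the Azin2-/- libraries. The 10 progenitor markers summed to 2989 to 5941 bp and 3913 to 18151 bp, and the 10 adipocyte markers to 6549 to 7373 bp and 4416 to 7218 bp. Of 7 tested progenitor markers, 5 were below 0 and 2 above. Col1a1 alone did not overlap, at 180 ± 312 bp against 1903 ± 1358 bp, while Dlk1 had a log2 difference of 1.45 with overlap. Of 5 tested adipocyte markers, 4 were above 0 and 1 below. Lipe alone did not overlap, at 1652 ± 355 bp against 92.6 ± 160 bp (scaled, SD, n = 3 each). Wild-type replicate 1 was the lowest in the macrophage, endothelial and lymphocyte sums and lacked the Nfkb2 and Tnfaip3 start peaks. It was also by far the highest in the progenitor sum, with 18151 bp against 3913 and 6404 bp in wild-type replicates 2 and 2b. The part of these cell types, and of list strength, in the results for Nfkb2, Icam1 and Nfkb1 was not tested, and fewer cells of a type and less acetylation per cell cannot be told apart in bulk chromatin.

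Around the 10 genes, 4 lists of other pathway genes were examined, and limma called 0 of their 51 tested genes. Cover of neighbouring genes in their windows was not separated. The other inhibitors had a median log2 difference of 0.31 over 10 tested of 10, with 0 higher and 0 lower genes at an unadjusted p under 0.05. Nfkbid at 1.14 (SE 0.73) and the deubiquitinase gene Otulin at 0.99 (SE 0.77) were at the upper end, and Nfkbil1 at -0.42 (SE 0.43) and N4bp1 at -0.21 (SE 0.45) at the lower end. Leaving out wild-type replicate 2b took Nfkbid to 2.07, leaving out Azin2-/- replicate 8 took Otulin to 1.70, and leaving out wild-type replicate 1 took N4bp1 to 0.18. Tnip2, which encodes a partner of A20, was the only one whose genotypes did not overlap and was higher in the Azin2-/- libraries.

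The kinases and adaptors, which carry the signal from the receptors to the inhibitors, had a median of 0.04 over 24 tested of 29, with 1 higher and 0 lower genes at an unadjusted p under 0.05. At the upper end were Traf3, a ubiquitin ligase adaptor that limits the non-canonical pathway, at 1.05 (SE 0.43), and Rnf31 at 0.88 (SE 0.56). At the lower end stood Traf1 at -1.01 (SE 0.57) and Map3k7, which encodes the kinase TAK1, at -0.92 (SE 0.55). Cover was present in all 6 libraries at 14 of the 29, among them the inhibitor kinase genes Chuk and Ikbkb. Ikbkb was the only one without overlap, at 597 ± 144 bp in the Azin2-/- libraries and 1022 ± 183 bp in the wild-type ones (scaled, SD, n = 3 each).

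Of 14 receptors 8 were tested, or 57.1%, against 54.0% of all protein-coding genes. Their median was -0.15, with 0 genes past an unadjusted p of 0.05. Only Il1r1 and Tlr6 had cover in all 6 libraries, which is 14.3% against 31.6% of all genes. Ltbr, the lymphotoxin receptor of the non-canonical pathway, had 1.28 (SE 0.67) and Tnfrsf11a, which encodes RANK, 0.96 (SE 0.80). Tnfrsf12a had -0.90 (SE 0.80) and Il1r1 -0.65 (SE 0.58). Single libraries moved these values. Without wild-type replicate 1 Il1r1 was 0.02 and Tnfrsf12a -0.35, and without wild-type replicate 2 Tnfrsf12a was -1.64. The other 2 became larger, Ltbr at 2.01 without wild-type replicate 2b and Tnfrsf11a at 1.68 without Azin2-/- replicate 8. Their lowest values with 1 library left out were 0.91 for Ltbr and 0.71 for Tnfrsf11a.

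Of 30 other NF-kappa-B targets 9 reached the minimum, whereas 54.0% of all protein-coding genes did. Only Csf1, Sod2, Bcl2l1 and Irf1 had cover in all 6 libraries, which is 13.3% against 31.6%. The inflammatory cytokine and chemokine genes Il6, Csf2, Ccl20 and Cxcl2, and the acute-phase gene Lcn2, had no cover in any library. These 5 are 16.7% of the list, near the 17.5% of all genes without cover. The median of the 9 was -0.61, with 0 higher genes and 1 lower gene at an unadjusted p under 0.05. Csf1, the macrophage growth factor gene, was the only one without overlap, at 588 ± 178 bp in the Azin2-/- libraries and 2870 ± 2488 bp in the wild-type ones (scaled, SD, n = 3 each; log2 difference -1.41, SE 0.50). Lif followed at -1.11 (SE 0.60), and at the other end Nos2 had 0.81 (SE 0.55) and Bcl2a1b 0.01 (SE 0.64). With 1 library left out at a time, Lif ranged from -1.60 to -0.53, Nos2 from 0.28 to 1.20 and Bcl2a1b from -0.63 to 0.55. Tnip2, Ikbkb and Csf1 are named for their lack of overlap, after their values were seen.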

How the data were processed

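H3K27ac ChIP-seq peak lists of 6 libraries (3 Azin2-/-, 3 wild-type) were analysed; the 6 input libraries were not analysed here. Each deposited list gives, per the file columns, for each peak a score, the ratio of its summit to background (fold), and its p-value and q-value as -log10. The build is GRCm38 (mm10), per the submitters' processing notes; the sources used here do not give the aligner, peak caller, control or handling of duplicates. The authors' values were used only to rank, filter and describe peaks within a list.

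Peaks on chromosomes 1 to 19 and X were ranked by deposited p, then fold and position, and the first 30000 kept. In Azin2-/- replicate 2 the cut fell among peaks of equal p and fold, so position decided which of them were kept. Cover was the bp under them in each gene span with 5 kb on each side, scaled to equal totals, as log2 with 500 bp added. Loci with a mean of at least 500 bp entered limma 3.58.1 (R 4.3.3; eBayes with a mean trend, no covariate), with Benjamini-Hochberg adjustment. This fit was also run on simulated normal values with a spread common to all loci. Cover has zeros and unequal spreads, so that run does not show how many changed loci would be called here. Peaks from any of the lists that shared at least 1 bp formed a region. Gene spans and promoter sequences are RefSeq's on GRCm38.p6; spans come without exons, so exon and intron were not assigned. Neighbouring protein-coding genes were taken from the same table.

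The 10 genes and the other gene lists were chosen with earlier results of these data known. All 10 are named, together with the 2 highest and the 2 lowest log2 differences of each list. A limma p sets the genotype difference against the spread between these libraries, which may be technical. The deposited p of a peak belongs to its own library and holds no spread between libraries. No main peak had the same coordinates in wild-type replicates 2 and 2b, and they were kept as separate libraries. Alternatives were other list lengths, q thresholds, windows, pseudocounts, minimums, scaling, summit windows, a replicate block, averaging of replicates 2 and 2b, and each library left out. Removing the cover of neighbouring genes was added after the data were seen.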

Additional observations from a re-analysis of the deposited data

How the results depend on the processing

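The count of loci called was 0 in 19 of 22 alternatives. It was 26 at a deposited q of 0.01 or less and 59 with windows of 250 bp on each side of each summit, and none of the 10 genes was among them. The same holds for the 12 loci called with the replicate number as a block, a fit on the 4 libraries numbered 1 and 2. Same-numbered libraries had correlations of deviations of -0.04 and 0.12, so the replicate block rests on shared numbers only. Under it the median over the 10 genes was 0.15 and 4 did not overlap between genotypes, where 36.6% of all loci did not overlap.

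The median log2 difference of the 10 genes was -0.41 in the lists of 5000 peaks, over the 8 genes that reached the minimum there. The number of genes whose genotypes do not overlap was 1 with 5000 peaks (Nfkb1), 60000 peaks (Nfkb2), all deposited peaks (Tnfaip3, lower) and a deposited q of 0.05 or less (Nfkb2), where 15.4%, 11.0%, 7.67% and 11.2% of all loci did not overlap. The cause of these shifts was not tested. With each library left out in turn, the count of loci stayed 0, the median ranged from -0.06 to 0.14 and the number without overlap from 3 to 4, while the share of all loci without overlap was 19.3% to 25.8% against 11.6% with all libraries. Regions held by every library numbered 2 in the lists of 5000 peaks, and 8 genes matched the looser motif. Of 226 values for single genes under an alternative, 202 moved by less than 1 SD between libraries and 24 by more. Removing neighbouring genes moved Icam1 from 1.22 to 0.17.

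Depth is unknown, and the absence of a peak from a list of fixed length does not show that acetylation is absent.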
